A study of Mus musculus with 18 samples.

Results

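The genes described here are 10 genes of the smooth muscle actin cytoskeleton and of serum response factor (SRF): Acta2, Actg2, Cnn1, Tagln, Tpm1, Tpm2, Myl9, Cald1, Vcl and Srf itself. They were taken by symbol, as the probe set annotated to one of these genes alone, from 19937 genes so annotated on a mouse gene expression array, and each of the 10 has 1 such probe set. All 10 passed the filter on dim genes and are among the 15711 genes tested. The samples are 18 arrays of total RNA from mouse embryonic fibroblasts (MEFs, cultured fibroblasts taken from embryos) of strain 129sv/ev, in 6 groups of 3 arrays. Nfat5 knock-out (KO) cells were measured in hypertonic and in isotonic medium. Wild-type (WT) cells were measured in hypertonic and in isotonic medium after 1 h of pretreatment with 100 nM Torin1, an inhibitor of the mTOR kinase, and in hypertonic and in isotonic medium without it. The titles mark the media as 500 and 300 and give no unit, and how long the cells stayed in hypertonic medium is left unsaid by the labels. All KO arrays come from 1 named cell line and all WT arrays from another, so line and genotype cannot be told apart.

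SRF is a transcription factor that binds a short AT-rich sequence, the CArG box, in the promoters of many genes for actins and actin-binding proteins. With the myocardin-related cofactors MRTF-A and MRTF-B, which free actin monomers hold in the cytoplasm, it drives contractile and cytoskeletal genes, and with ternary complex factors such as the ELK proteins it drives immediate early genes. In cultured fibroblasts the smooth muscle genes mark the contractile, myofibroblast state with thick actin stress fibres. NFAT5 is the transcription factor best known for the response to hypertonic medium, in which cells first shrink, and its recognition sequence holds the core TGGAAA.

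Promoters of 4 of the genes are shown as examples of the motifs these factors are known to bind. They are all 3 that hold an exact CArG box, and 1 of the 2 that hold the NFAT5 core. RefSeq promoters of assembly GRCm38.p6, from 250 bases before to 50 after the gene start, were found for 8 of the 10 genes, Cald1 with 2, and so for 9 promoters. The CArG box was searched on both strands in the exact form CCWWWWWWGG, where W is A or T. Matches were present in 3 of the 9 promoters, against 535 of 32851 promoters of the whole table (1.63%). They belong to Srf, Myl9 and Vcl. The sequences below run 5′ to 3′ on the strand of the gene, with the CArG boxes in capitals: Srf (chr17:46556113-46556412, minus strand), Myl9 (chr2:156775214-156775513, plus strand) and Vcl (chr14:20929148-20929447, plus strand).
Srf: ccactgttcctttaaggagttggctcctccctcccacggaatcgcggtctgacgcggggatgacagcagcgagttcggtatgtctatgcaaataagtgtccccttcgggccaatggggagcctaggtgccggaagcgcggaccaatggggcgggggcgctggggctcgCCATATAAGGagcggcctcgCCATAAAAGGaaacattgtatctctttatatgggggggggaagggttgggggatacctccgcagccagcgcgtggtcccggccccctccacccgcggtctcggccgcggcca
Myl9: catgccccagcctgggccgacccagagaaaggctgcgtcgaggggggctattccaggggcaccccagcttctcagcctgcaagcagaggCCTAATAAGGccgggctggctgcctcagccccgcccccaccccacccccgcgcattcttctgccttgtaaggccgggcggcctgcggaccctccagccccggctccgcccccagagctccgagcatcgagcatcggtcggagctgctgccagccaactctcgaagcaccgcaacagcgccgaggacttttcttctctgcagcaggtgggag
Vcl: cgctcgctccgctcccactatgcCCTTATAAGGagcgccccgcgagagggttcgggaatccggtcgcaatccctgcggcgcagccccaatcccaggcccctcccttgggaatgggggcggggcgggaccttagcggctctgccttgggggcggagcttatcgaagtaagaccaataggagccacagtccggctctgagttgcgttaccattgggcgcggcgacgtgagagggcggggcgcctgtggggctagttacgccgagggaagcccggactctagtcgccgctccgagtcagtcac
In Srf the 2 boxes began 82 and 62 bases before the gene start and read CCATATAAGG and CCATAAAAGG. The box of Myl9 began 161 bases before the start and that of Vcl 227 bases before it. The core TGGAAA, searched on both strands and not overlapping any of these boxes, was present in 2 of the 9 promoters, those of Cnn1 and Tpm1, a share near the 21.4% of all promoters. Tpm1 held it on the opposite strand, 83 bases before the start. Cnn1, shown as the promoter with 2 copies, held it at 213 and at 152 bases before the start (chr9:22099003-22099302, plus strand, the core in capitals).
Cnn1: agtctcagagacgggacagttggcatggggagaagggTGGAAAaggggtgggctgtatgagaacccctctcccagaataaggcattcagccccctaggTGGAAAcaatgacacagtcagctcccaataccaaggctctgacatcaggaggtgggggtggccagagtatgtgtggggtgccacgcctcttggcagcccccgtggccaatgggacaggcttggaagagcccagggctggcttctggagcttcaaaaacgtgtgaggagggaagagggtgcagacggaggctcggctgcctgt
A match describes the letters in this window only. Forms of the CArG box that depart from CCWWWWWWGG were not searched, so a promoter without a match may still hold such a form. Actg2 and Tagln are named without a sequence.

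Levels are given as log2 RMA signals, a robust summary of the probes of a gene, so that a difference of 1 is 2-fold. Array medians over genes lay between 7.53 and 7.74, and arrays of a group correlated at r of 0.982 to 0.998. The number of arrays limits the precision. The labels do not say whether the 3 arrays of a group, numbered 1, 2 and 4, are separate cultures, and the p-values then reflect the spread among arrays alone, which may be technical. The isotonic KO array 1 is KO by its title and wild type by its genotype label, and was kept with KO. Nfat5 itself was at 9.72 to 10.22 in KO arrays and at 9.94 to 10.77 in WT arrays. It differed by -0.26 ± 0.16 log2 (SE) in isotonic and -0.44 ± 0.16 in hypertonic medium (adjusted p = 0.367 and 0.0503, limma), and whether its probes lie in the deleted part is not given. Of the fibroblast markers 9 of 10 were above the filter, Fap below it, and their mean level was 11.01 to 11.34 in KO arrays against 9.53 to 9.95 in WT arrays. Among them Thy1, a surface marker of fibroblasts, was at 10.64 to 11.27 in KO and 6.69 to 7.22 in WT arrays. Dcn, the matrix proteoglycan decorin, was at 12.52 to 13.74 in KO arrays, against 7.27 to 8.21 in WT arrays 1 and 2 and 11.67 to 11.85 in WT arrays 4. The 8 markers of differentiated smooth muscle were all above the filter and averaged 7.70 to 8.54 in KO and 8.04 to 8.37 in WT arrays. Their highest group means were 12.33 for Hspb6, 11.33 for Smtn, 9.31 for Itga8 and 8.55 for Lmod1. Ppp1r14a, Synpo2 and Des reached 7.08, 6.85 and 6.67 at most. Myh11, the myosin heavy chain that defines this cell type, reached a group mean of 6.81 at most. Of 6 macrophage markers 4 were above the filter, with a highest group mean of 8.81 for Csf1r, while the defining Ptprc and Adgre1 were below it, and the list averaged 6.59 to 6.996 in KO and 6.54 to 7.09 in WT arrays. Of 5 endothelial markers 3 were above it, with up to 8.47 for Tek, while Kdr and Emcn were below it, and the list averaged 5.84 to 6.44 in KO and 5.51 to 5.91 in WT arrays. All 5 epithelial, 6 skeletal muscle and 6 cardiac muscle markers were above it, led by Cdh1 (8.34), Acta1 (8.30) and Tnnt2 (9.02). The epithelial list averaged 6.76 to 7.26 in KO and 6.44 to 6.85 in WT arrays, the skeletal muscle list 6.64 to 6.89 in KO and 6.45 to 6.82 in WT, and the cardiac muscle list 6.87 to 7.04 in KO and 6.81 to 7.55 in WT. Fewer cells of a type and less RNA per cell cannot be told apart in these bulk samples, and the part of these markers in the differences below was not tested.

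The 10 genes were well above the filter of 5.86 in every array, the lowest value being 7.40 for Cnn1. Isotonic WT cells, without or with Torin1, had the highest group mean for all 10, in 8 cases without it. Hypertonic KO cells had the lowest mean for 7 of the genes, hypertonic WT cells with Torin1 for Acta2 and Srf, and isotonic KO cells for Cnn1. Acta2, the smooth muscle alpha-actin, kept within a narrow range, from 13.10 to 13.71, near the highest signal of any gene on an array (14.24 to 14.39), and whether its signal is compressed there was not tested.

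**Figure D1:**
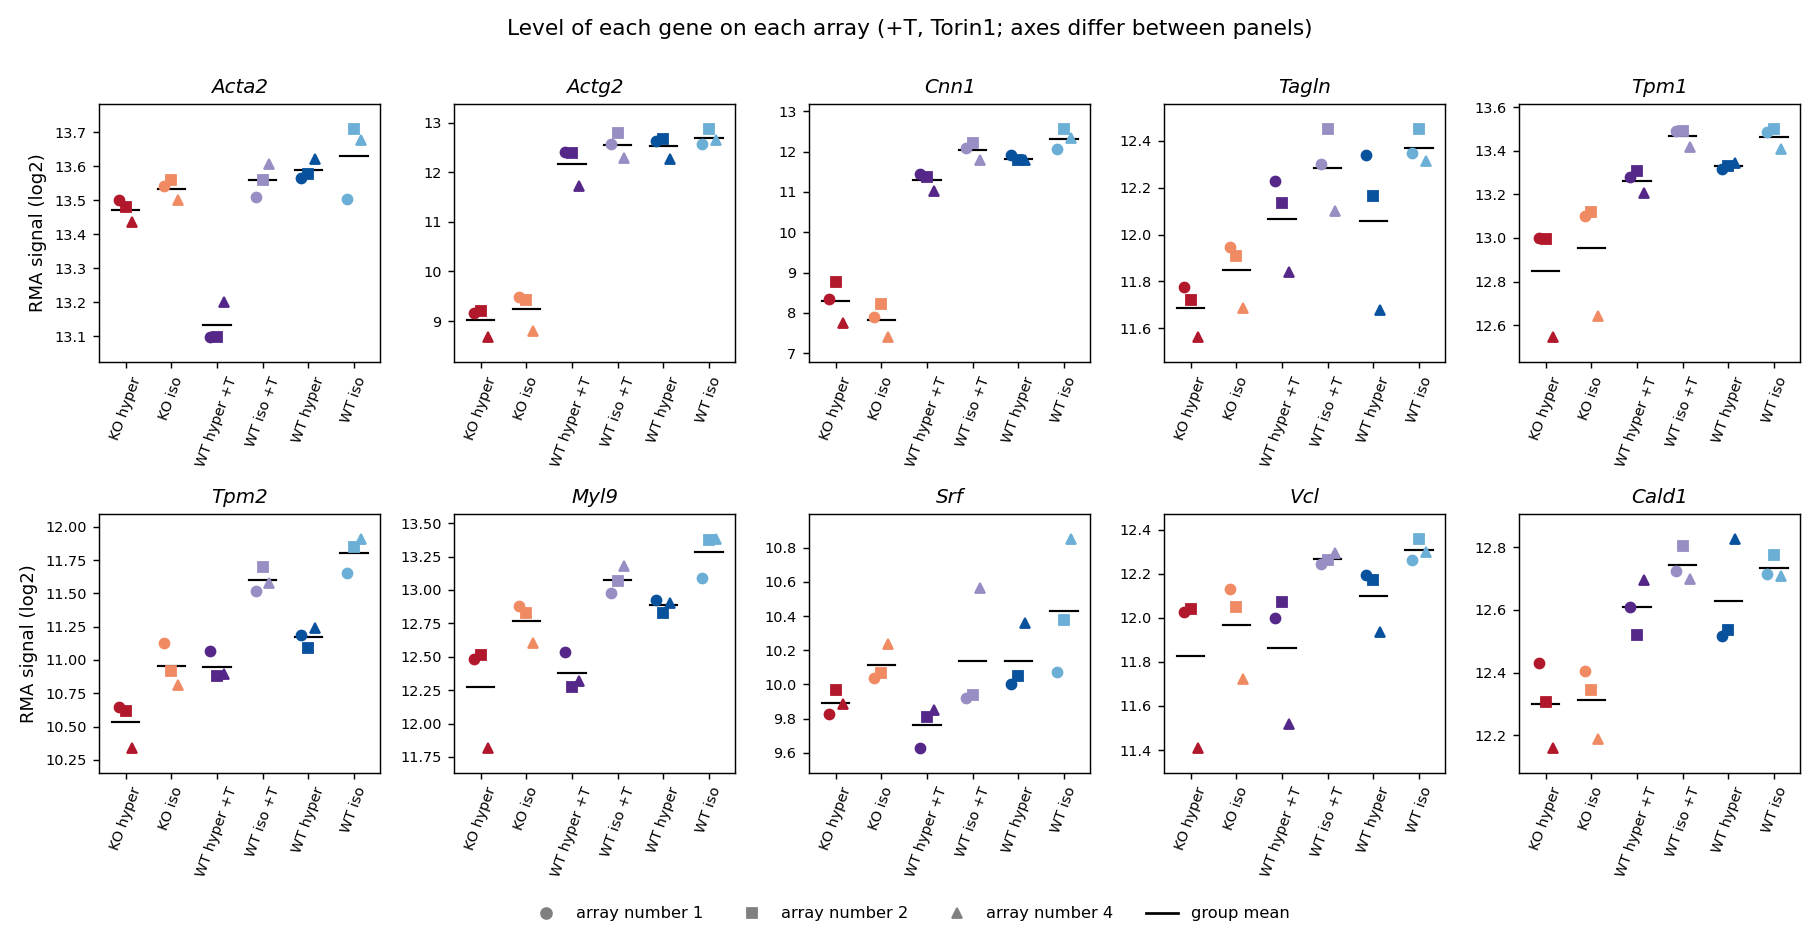
RMA signal (log2) of each of the 10 genes on every array, by group, with the 3 arrays as points and the group mean as a line; the axes differ between panels. The 6 KO arrays of Actg2 and Cnn1 lie far below the 12 WT arrays, while the 6 groups of Acta2 lie between 13.10 and 13.71, with only hypertonic WT cells with Torin1 set apart.

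In KO cells the smooth muscle gamma-actin gene Actg2 and the calponin gene Cnn1 were more than 10-fold lower than in WT cells, in both media. Cnn1 encodes calponin 1, which binds actin and restrains its myosin motor in smooth muscle. Its signal was 7.89, 8.21 and 7.40 on isotonic KO arrays 1, 2 and 4, against 12.05, 12.57 and 12.35 on the isotonic WT arrays. In hypertonic medium it was 8.34, 8.78 and 7.75 in KO, against 11.91, 11.78 and 11.78 in WT. All KO arrays lay below all WT arrays, those with Torin1 included. The isotonic difference was -4.49 ± 0.24 log2 (SE), 22.4-fold lower in KO (95% interval 15.8 to 31.9, adjusted p = 2.47e-09), and ranked 10 among the 15711 genes in order from the lowest change. The hypertonic difference was -3.54 ± 0.24, 11.6-fold lower (8.16 to 16.5, adjusted p = 3.92e-08). Within the array numbers 1, 2 and 4 the isotonic difference was -4.16, -4.36 and -4.94.

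Actg2 encodes the gamma-actin of gut and other visceral smooth muscle. Its signal was 9.49, 9.43 and 8.79 on isotonic KO arrays, against 12.57, 12.88 and 12.64 on isotonic WT arrays. In hypertonic medium the KO arrays were at 9.16, 9.21 and 8.68, against 12.63, 12.66 and 12.27 for WT. The groups did not overlap in either medium, and array 4 was the lowest of the KO arrays in both, as it was for Cnn1. Actg2 was 11.01-fold lower in isotonic KO cells (95% interval 7.94 to 15.3, -3.46 ± 0.22 log2, adjusted p = 1.95e-08). It was 11.4-fold lower in hypertonic KO cells (8.19 to 15.7, -3.50 ± 0.22, adjusted p = 1.95e-08).

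The other genes differed far less. In isotonic medium 7 of the 10 genes fell in KO cells and none rose, while 14.6% of all genes tested passed the threshold and 6.84% fell. All 10 changes were below 0 in both media, as were 45.2% of all genes in isotonic and 45.4% in hypertonic medium. The median isotonic change of the 10 was -0.51 log2, against 0.02 over all genes tested. In hypertonic medium 6 of the 10 fell and none rose, with 31.9% of all genes past the threshold and 18% lower, and the medians were -0.43 and 0.04. The arrays of the 2 lines did not overlap for 8 of the 10 in each medium, KO being lower, as for 14.1% of all genes in isotonic and 23% in hypertonic medium. With the array number as a block Tagln passed in hypertonic medium too, so that 7 fell, with 22% of all genes lower in that fit.

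The tropomyosins, which lie along the actin filament and control access to it, were both lower in KO. Tpm2, the beta-tropomyosin, was at 11.13, 10.92 and 10.81 on isotonic KO arrays, against 11.65, 11.84 and 11.91 on isotonic WT arrays. In hypertonic medium it was at 10.65, 10.62 and 10.34 in KO, against 11.19, 11.09 and 11.24 in WT. The lines did not overlap, and Tpm2 fell by 0.85 ± 0.11 log2 in isotonic KO cells (adjusted p = 4.83e-05) and by 0.64 ± 0.11 in hypertonic KO cells (adjusted p = 0.000383). Tpm1, the alpha-tropomyosin, was at 13.10, 13.12 and 12.64 on isotonic KO arrays, against 13.48, 13.50 and 13.41 on isotonic WT arrays. Its arrays did not overlap, with KO array 4 set below the other two. Tpm1 fell by 0.51 ± 0.13 in isotonic KO cells (adjusted p = 0.0126) and by 0.48 ± 0.13 in hypertonic KO cells (adjusted p = 0.00899). Without isotonic KO array 4 its isotonic change was -0.35 (adjusted p = 0.0624), and 4 of the 10 genes passed instead of 7. It also did not pass when only the arrays of the 2 isotonic groups were fitted (adjusted p = 0.068).

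Myl9, a regulatory light chain of the myosin that pulls on stress fibres, was at 12.88, 12.83 and 12.60 on isotonic KO arrays, against 13.09, 13.38 and 13.38 on isotonic WT arrays. In hypertonic medium it was at 12.48, 12.52 and 11.82 in KO, against 12.93, 12.83 and 12.91 in WT. Neither pair of groups overlapped. Myl9 fell by 0.51 ± 0.16 log2 in isotonic KO cells (adjusted p = 0.0364) and by 0.62 ± 0.16 in hypertonic KO cells (adjusted p = 0.00658). The isotonic call was lost on leaving out isotonic WT array 2 or 4 or isotonic KO array 1, 2 or 4 (adjusted p of 0.0537 to 0.133), and the hypertonic call when only the 2 hypertonic groups were fitted (adjusted p = 0.053).

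Tagln, which encodes the actin-bundling protein SM22 alpha, was at 11.95, 11.91 and 11.69 on isotonic KO arrays, against 12.35, 12.45 and 12.31 on isotonic WT arrays, with no overlap. In hypertonic medium it was at 11.77, 11.72 and 11.56 in KO, against 12.34, 12.16 and 11.68 in WT, where array 4 of WT lay among the KO arrays. Tagln fell by 0.52 ± 0.15 log2 in isotonic KO cells (adjusted p = 0.0297). It did not pass once isotonic WT array 1, 2 or 4 or isotonic KO array 2 or 4 was left out (adjusted p of 0.0518 to 0.112). The hypertonic change was -0.37 ± 0.15 (adjusted p = 0.0747, 0.00871 with the block, 0.0288 with quantile normalization, and 0.00569 without hypertonic WT array 4, where it was -0.56).

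Cald1, the caldesmon gene, whose product ties myosin to actin and tropomyosin, was at 12.40, 12.35 and 12.19 on isotonic KO arrays, against 12.71, 12.77 and 12.71 on isotonic WT arrays. In hypertonic medium it was at 12.43, 12.31 and 12.16 in KO, against 12.52, 12.54 and 12.83 in WT. The groups did not overlap in either medium. Cald1 fell by 0.42 ± 0.10 log2 in isotonic KO cells (adjusted p = 0.00856) and by 0.33 ± 0.10 in hypertonic KO cells (adjusted p = 0.0196). The hypertonic call was lost without hypertonic WT array 4 (-0.23, adjusted p = 0.097), hypertonic KO array 2 or hypertonic KO array 4 (-0.26, adjusted p = 0.0814), and without all arrays of number 4 the change was -0.16 (adjusted p = 0.235). It was lost as well with arrays centred on their medians (-0.18, adjusted p = 0.131) and when only the 2 hypertonic groups were fitted (adjusted p = 0.104).

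**Figure D2:**
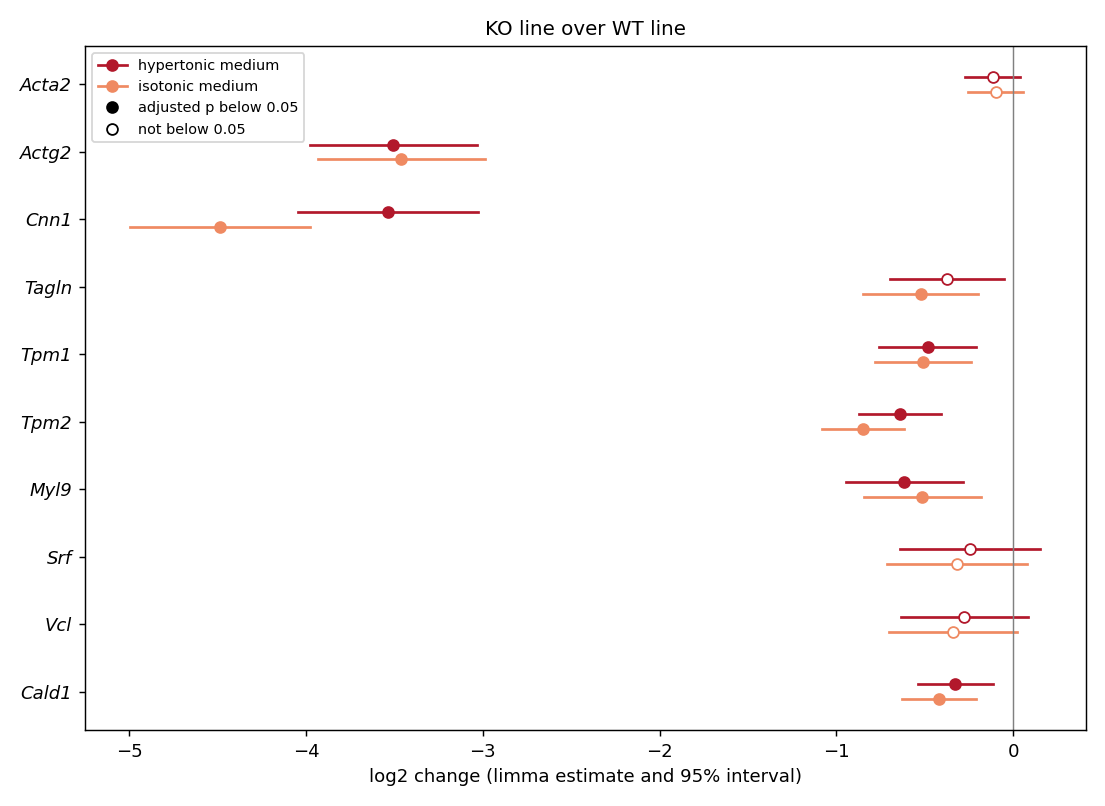
Change of each gene in KO over WT cells (log2, limma estimate with its 95% interval) in hypertonic and in isotonic medium, with filled points for an adjusted p below 0.05. Cnn1 and Actg2 lie between -4.49 and -3.46 in both media, and the other 8 genes lie between -0.85 and -0.10.

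Acta2, Srf and Vcl did not pass between the lines in either medium. Acta2 was at 13.54, 13.56 and 13.50 on isotonic KO arrays, against 13.50, 13.71 and 13.68 on isotonic WT arrays, which overlap. The change was -0.10 ± 0.07 log2 (95% interval -0.25 to 0.06, adjusted p = 0.461). In hypertonic medium it was at 13.50, 13.48 and 13.44 in KO, against 13.57, 13.58 and 13.62 in WT. These arrays did not overlap, yet the change of -0.12 ± 0.07 did not pass (adjusted p = 0.251), and it was 0.031 with arrays centred on their medians. Srf, the factor itself, was at 10.04, 10.07 and 10.24 on isotonic KO arrays, against 10.07, 10.38 and 10.85 on isotonic WT arrays, which overlap, and array 4 was the highest in each group. It changed by -0.32 ± 0.19 (95% interval -0.72 to 0.08, adjusted p = 0.313) in isotonic and by -0.24 ± 0.19 (-0.64 to 0.15, adjusted p = 0.342) in hypertonic KO cells. Vcl, the gene of vinculin, which links actin to focal adhesions, was at 12.13, 12.05 and 11.72 on isotonic KO arrays, against 12.26, 12.36 and 12.30 on isotonic WT arrays, without overlap. Its change was -0.34 ± 0.17 (adjusted p = 0.229) in isotonic and -0.27 ± 0.17 (adjusted p = 0.237) in hypertonic KO cells.

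Related genes of the same pathway were taken from 6 lists written from general knowledge. Closest to the 10 genes are their paralogues, the forms used in other muscles or in all cells. None of the 12 measured paralogues passed between the lines in isotonic medium by limma, with or without the block, where 1, Cnn2, had an unadjusted p below 0.05, and 2 passed in hypertonic medium. Over all genes 14.6% passed in isotonic and 31.9% in hypertonic medium without the block. The isotonic KO over WT changes were -0.04 for Acta1, -0.10 for Actc1 and -0.06 for Actb among the actins. They were -0.22 for Cnn2 and 0.09 for Cnn3 among the calponins, and 0.13 for Tagln2 and -0.35 for Tagln3 among the transgelins. Among the tropomyosins they were -0.07 for Tpm3 and -0.15 for Tpm4, and among the myosin light chains 0.02 for Myl6, -0.02 for Myl12a and 0.14 for Myl12b. In hypertonic medium Cnn2 fell by 0.29 ± 0.10 log2 (adjusted p = 0.0364) and Tagln3 rose by 0.52 ± 0.18 (adjusted p = 0.0376) in KO cells. Leaving out 1 of 5 arrays for Cnn2 or 1 of 4 for Tagln3 ended these calls, and so did a fit of only the 2 groups (adjusted p = 0.16 and 0.107). Cnn2 changed by -0.14 with centred arrays (adjusted p = 0.244) and by -0.12 without the arrays of number 4 (adjusted p = 0.404). In hypertonic against isotonic medium 1 of the 12 paralogues, Cnn2, fell in WT cells, against 4.3% lower over all genes. With Torin1 2 fell, Cnn2 and Myl6, against 1.72% lower. In KO cells 3 fell and 1 rose, against 17.2% lower and 12.9% higher. On leaving out single arrays 0 to 1, 0 to 2 and 1 to 3 fell in these 3 comparisons, and 0 to 1 rose in KO cells. Actins share most of their sequence, and how far the probes tell them apart is not stated in the files or labels.

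Among 28 other cytoskeletal targets of MRTF and SRF 10 fell and 2 rose in isotonic KO cells, with a median of -0.35 log2, against 6.84% lower and 7.78% higher over all genes. On leaving out single arrays 7 to 12 fell. Ccn2, a secreted matrix protein also known as CTGF, fell by 1.65 ± 0.26 log2 (adjusted p = 0.000341). Fhl2, a LIM protein that binds SRF, fell by 1.60 ± 0.22 (adjusted p = 7.77e-05) and Pdlim5, a LIM protein of actin bundles, fell by 0.83 ± 0.15 (adjusted p = 0.00103). Tln2, a talin of integrin adhesions, rose by 1.38 ± 0.14 (adjusted p = 4.45e-06). In hypertonic medium 7 fell and 2 rose, with a median of -0.18, against 18% lower and 13.8% higher over all genes, and 2 to 4 rose on leaving out single arrays. There Fhl2 fell by 2.19, Ccn2 fell by 1.25, Pdlim5 fell by 1.02 and Tgfb1i1, the gene of the focal adhesion protein Hic-5, fell by 1.00 in KO cells.

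Of 12 smooth muscle contractile genes outside the 10, 3 fell and 2 rose in isotonic KO cells, with a median of 0.12 log2. Over all genes 6.84% were lower and 7.78% higher. Lmod1, which nucleates actin filaments in smooth muscle, fell by 1.03 ± 0.22 (adjusted p = 0.004) and Kcnmb1, a potassium channel subunit, fell by 0.94 ± 0.22 (adjusted p = 0.00696). Pgm5, a protein of adherens junctions also known as aciculin, rose by 4.05 ± 0.59 (adjusted p = 0.000165). Its signal was 10.47, 10.52 and 8.19 on isotonic KO arrays, against 6.001, 5.61 and 5.42 on isotonic WT arrays, so KO array 4 stood below the other KO arrays and above all WT arrays. In hypertonic medium 4 of the 12 fell and 2 rose (2 to 4 and 1 to 3 on leaving out single arrays). Over all genes 18% were lower and 13.8% higher there, so the share that rose was near that of all genes. Pgm5 (3.38 ± 0.59) and Smtn, the smoothelin gene (-0.97 ± 0.17, adjusted p = 0.00042), led these calls. The contractile genes thus did not all lie on one side.

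Of 20 cofactors and upstream regulators of SRF 4 fell and 1 rose in isotonic KO cells, with a median of -0.12 log2. Over all genes 6.84% were lower and 7.78% higher. On leaving out single arrays 2 to 4 of the 20 fell and 0 to 1 rose. Klf4, a factor that represses smooth muscle genes, fell by 1.38 ± 0.14 (adjusted p = 4.93e-06) and Diaph1, a formin that builds actin filaments, fell by 0.46 ± 0.08 (adjusted p = 0.000476). Mrtfa, the gene of MRTF-A, fell by 0.47 ± 0.13 (adjusted p = 0.018), a call that was lost on leaving out 1 of 3 arrays (adjusted p of up to 0.0688). Of 18 genes of the TGF-beta pathway and myofibroblasts 7 fell and 1 rose in isotonic KO cells, against the same 6.84% and 7.78% of all genes. Skil, an inhibitor of SMAD signalling, fell by 1.68 ± 0.12 (adjusted p = 8.56e-08) and Ltbp1, a carrier of latent TGF-beta, fell by 1.92 ± 0.32 (adjusted p = 0.000489). Tgfbr2, a TGF-beta receptor, rose by 1.02 in isotonic and 1.22 in hypertonic KO cells. In hypertonic medium 5 of the 18 fell and 2 rose (4 to 5 and 1 to 2 on leaving out single arrays), against 18% lower and 13.8% higher over all genes. Of 13 immediate early targets of SRF and ternary complex factors 2 fell and none rose in isotonic KO cells, against 6.84% lower and 7.78% higher over all genes. On leaving out single arrays 1 to 3 fell. Dusp1, a phosphatase of MAP kinases, fell by 1.58 ± 0.22 (adjusted p = 8.41e-05). Fos fell by 1.00 ± 0.25 (adjusted p = 0.0136), a call lost on leaving out isotonic WT array 4 or isotonic KO array 1. In hypertonic medium 1 of the 13 fell and 1 rose, against 18% lower and 13.8% higher over all genes.

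**Figure D3:**
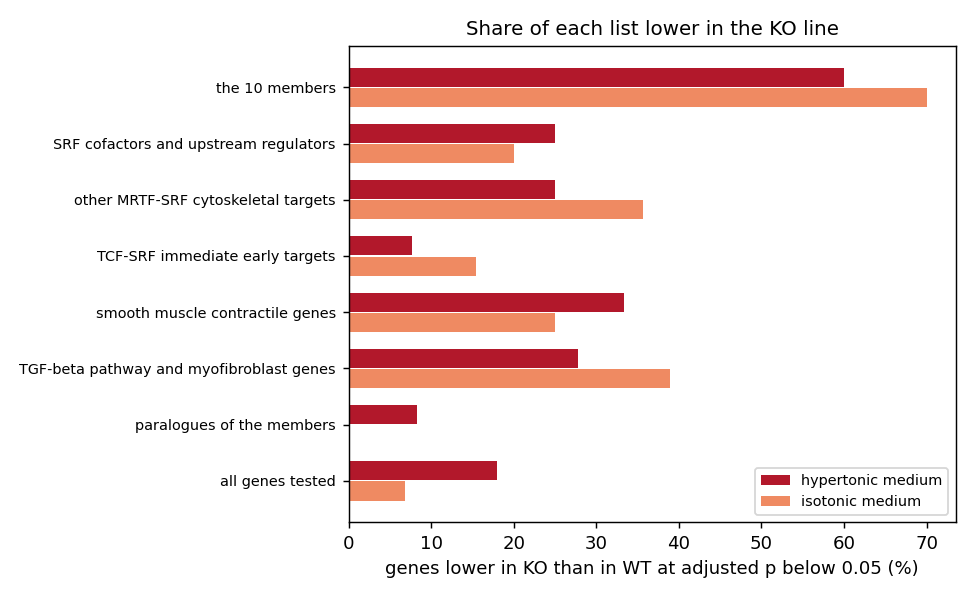
Share of each list (%) that was lower in KO than in WT cells at an adjusted p below 0.05, in hypertonic and in isotonic medium, with the 10 genes at the top and all genes tested at the bottom. In isotonic medium 7 of the 10 genes and 10 of 28 other MRTF-SRF cytoskeletal targets were lower, against 6.84% of all genes, and 0 of 12 paralogues.

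In hypertonic medium the cells were compared with their own line in isotonic medium. In WT cells 1 of the 10 genes passed, Tpm2, while 8.24% of all genes passed and 4.3% fell. With the values above, hypertonic WT arrays of Tpm2 lay below all isotonic WT arrays, and it fell by 0.63 ± 0.11 log2 (adjusted p = 0.00358). All 10 changes were below 0, as were 45.4% of those of all genes, and the medians were -0.25 for the 10 and 0.02 for all genes. Cnn1 changed by -0.50 ± 0.24 (95% interval -1.01 to 0.01, adjusted p = 0.23), Myl9 by -0.40 ± 0.16 (-0.73 to -0.06, adjusted p = 0.136) and Tagln by -0.31 ± 0.15 (adjusted p = 0.243). The arrays of the 2 media did not overlap for 5 genes, hypertonic being lower, as for 11.8% of all genes. Srf was at 10.0003, 10.05 and 10.36 in hypertonic against 10.07, 10.38 and 10.85 in isotonic WT cells and changed by -0.30 ± 0.19 (adjusted p = 0.389). The changes of Vcl, Actg2, Tpm1, Cald1 and Acta2 lay between -0.21 and -0.04 and did not pass. Without hypertonic KO array 4, which enters only the estimate of the spread, Myl9 passed as well (adjusted p = 0.0321).

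Of the 13 immediate early targets of SRF 3 rose and none fell in hypertonic WT cells, against 3.94% higher over all genes. Dusp1 rose by 1.22 ± 0.22 (adjusted p = 0.0038), Fosl1 by 1.27 ± 0.29 (adjusted p = 0.0149) and Fosb by 0.51 ± 0.12 (adjusted p = 0.0201). Leaving out isotonic WT array 4 or hypertonic WT array 1 ended the calls of Fosl1 and Fosb, and isotonic WT array 2 that of Fosb as well. Fitting only the 2 groups ended both calls too (adjusted p = 0.0782 and 0.156). Of the 28 cytoskeletal targets 1 fell, Pdlim7 (-0.48 ± 0.13, adjusted p = 0.0403), against 4.3% lower over all genes. Its call was lost on leaving out any 1 of 6 arrays (adjusted p of 0.0534 to 0.14) and when only the 2 groups were fitted (adjusted p = 0.086). Without the arrays of number 4, 7 of the 28 fell and 1 rose. In that fit 21.2% of all genes passed, against 8.24% with all arrays, and 51.9% of those past the threshold were higher. Tgfb3, the ligand TGF-beta 3, fell by 0.91 ± 0.16 (adjusted p = 0.0035, and 0.0529 when only the 2 groups were fitted).

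In WT cells with Torin1, 3 of the 10 genes fell in hypertonic against isotonic medium, with 3.37% of all genes past the threshold and 1.72% lower. Acta2 was at 13.10, 13.10 and 13.20 on hypertonic arrays with Torin1, against 13.51, 13.56 and 13.61 on isotonic arrays with Torin1. The hypertonic arrays lay below all others of the gene, and it fell by 0.43 ± 0.07 log2 (adjusted p = 0.00539). Tpm2 was at 11.07, 10.88 and 10.90, against 11.52, 11.70 and 11.58, without overlap, and fell by 0.65 ± 0.11 (adjusted p = 0.00472). Myl9 was at 12.54, 12.27 and 12.32, against 12.98, 13.07 and 13.18, without overlap, and fell by 0.70 ± 0.16 (adjusted p = 0.0218). The Myl9 call was lost on leaving out isotonic Torin1 array 1, 2 or 4 or hypertonic Torin1 array 2 or 4 (adjusted p of 0.0533 to 0.106). None of the 3 passed when only these 6 arrays were fitted (adjusted p of 0.0577 to 0.0993).

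Cnn1 changed by -0.75 ± 0.24 log2 in the cells with Torin1 (95% interval -1.26 to -0.24). It was at 11.45, 11.38 and 11.02 on the hypertonic arrays, against 12.10, 12.22 and 11.79 on the isotonic ones, without overlap. Its adjusted p was 0.102, 0.0173 without the arrays of number 4, and 0.0157 with the array number as a block, which made 4 genes of the 10, with 3.78% of all genes lower in that fit. Actg2, Srf, Vcl, Tagln, Tpm1 and Cald1 changed by -0.41 to -0.13 and did not pass. All 10 changes were below 0, against 46.5% for all genes, with a median of -0.39 against 0.02. The arrays did not overlap for 8 of the 10, as for 9.01% of all genes in that direction.

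In KO cells 2 of the 10 genes fell in hypertonic against isotonic medium, with 30.1% of all genes past the threshold and 17.2% lower. Myl9 fell by 0.50 ± 0.16 log2 (adjusted p = 0.0232) and Tpm2 by 0.42 ± 0.11 (adjusted p = 0.00849), and the arrays of both genes given above did not overlap between the media. Neither gene passed with isotonic KO array 1 left out (adjusted p = 0.0871 for Myl9 and 0.0511 for Tpm2). Myl9 also did not pass on leaving out isotonic KO array 2 (adjusted p = 0.0708), or hypertonic KO array 4, where its change was -0.27 (adjusted p = 0.109). With arrays centred on their medians neither passed (0.0819 for Myl9 and 0.0566 for Tpm2), and Myl9 did not when only the 2 KO groups were fitted (0.0991). With that centring the median change over all genes was 0.18 log2 and higher genes made up 69.3% of those past the threshold, against 42.9%.

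Cnn1 was higher in hypertonic KO cells at every array number, by 0.45, 0.56 and 0.34. The groups overlapped, at 8.34, 8.78 and 7.75 in hypertonic against 7.89, 8.21 and 7.40 in isotonic KO cells. The change of 0.45 ± 0.24 (95% interval -0.05 to 0.96) had an adjusted p of 0.177, of 0.0498 with the block (15.9% of all genes higher in that fit), of 0.035 without the arrays of number 4, and of 0.0248 without hypertonic KO array 4, where it was 0.73. The hypertonic KO arrays of Cnn1 lay below all WT arrays. Actg2, Srf, Tagln, Vcl, Tpm1, Acta2 and Cald1 changed by -0.22 to -0.01 and did not pass. Of these Vcl, Tpm1, Acta2 and Cald1 were above 0, by 0.0063 to 0.14, with centred arrays. Over the 10 genes 9 changes were below 0, against 46.9% for all genes, and the median was -0.15 against 0.02. The hypertonic arrays lay below all isotonic ones for 3 of the 10 and for 23.3% of all genes.

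Of the 20 cofactors and regulators of SRF 5 rose and 4 fell in hypertonic KO cells, against 12.9% higher and 17.2% lower over all genes. On leaving out single arrays 4 to 6 rose and 2 to 4 fell, and with centred arrays the fallen Elk1 and Limk2 did not pass (adjusted p = 0.113 and 0.0895). Klf4 rose by 1.74 ± 0.14 log2 (adjusted p = 1.31e-06), at 9.80, 9.96 and 10.13 in hypertonic against 8.19, 8.15 and 8.33 in isotonic KO cells. Rock1, the kinase that acts on myosin below RhoA, rose by 0.90 ± 0.11 (adjusted p = 3.3e-05) and Diaph1 by 0.82 ± 0.08 (adjusted p = 3.01e-06). Limk1, a kinase that protects actin filaments from cofilin, fell by 0.68 ± 0.12 (adjusted p = 0.000522). Of the 28 cytoskeletal targets 6 fell and none rose, led by Tgfb1i1 (-0.80 ± 0.13, adjusted p = 0.000244). The share that fell, 21.4%, was near the 17.2% of all genes. Of the 13 immediate early targets 5 rose, against 12.9% of all genes, led by Fosl1 (1.22 ± 0.29, adjusted p = 0.00463). On leaving out single arrays 3 to 6 of the cytoskeletal targets fell and 3 to 6 of the immediate early targets rose.

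**Figure D4:**
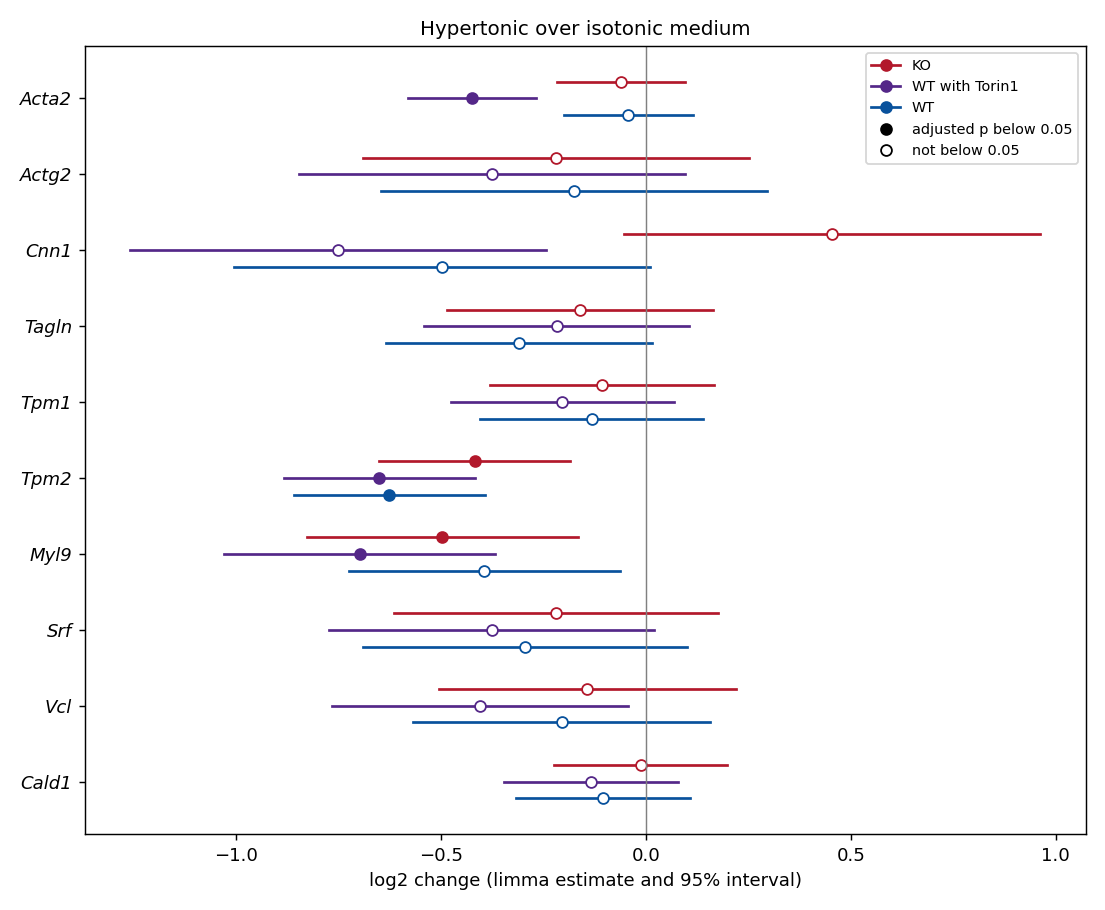
Change of each gene in hypertonic over isotonic medium (log2, limma estimate with its 95% interval) in KO cells, WT cells with Torin1 and WT cells, with filled points for an adjusted p below 0.05. Tpm2 passed in all 3, with changes of -0.42, -0.65 and -0.63, and Cnn1 lies above 0 in KO cells only (0.45, against -0.75 and -0.50).

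Torin1 itself was tested in WT cells within each medium. In isotonic medium none of the 10 genes passed and no gene on the array did (0% of all genes by limma, 0% with the block). At an unadjusted p below 0.05 by limma there were 470 genes, 2.99% of all genes, and none of the 10. There 8 of the 10 changes were below 0, against 46.8% for all genes, with a median of -0.12. None of the 10 had all Torin1 arrays below all others, as 2.53% of all genes had. In hypertonic medium 1 of the 10 passed, with 0.115% of all genes past the threshold and 0.0573% lower. That was Acta2, at 13.10, 13.10 and 13.20 with Torin1 against 13.57, 13.58 and 13.62 without it. The arrays did not overlap, and it fell by 0.46 ± 0.07 log2, 1.37-fold lower (95% interval 1.23 to 1.53, adjusted p = 0.0364), by 0.47, 0.48 and 0.42 within the array numbers 1, 2 and 4. The call was lost on leaving out any 1 of 11 of the 18 arrays, 4 of them in these 2 groups, with an adjusted p of at most 0.179, while the change stayed between -0.47 and -0.44.

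Myl9, at 12.54, 12.27 and 12.32 with Torin1 against 12.93, 12.83 and 12.91 without it, changed by -0.51 ± 0.16 log2 in hypertonic medium (95% interval -0.84 to -0.18, adjusted p = 0.167, and 0.0441 without the arrays of number 4). Cnn1 changed by -0.54 ± 0.24 (-1.05 to -0.03, adjusted p = 0.368) and Srf by -0.38 ± 0.19 (-0.77 to 0.02, adjusted p = 0.443). These 3 genes did not overlap between the groups, and the same held for Acta2, Tpm1 and Tpm2, 6 of the 10 in all against 7.95% of all genes. Of the 10 changes 9 were below 0, as were 47.8% over all genes. The changes of Actg2, Vcl, Tpm2, Tpm1, Cald1 and Tagln lay between -0.35 and 0.01. Myl6, the gene of another myosin light chain and one of the paralogues, was at 12.56, 12.60 and 12.64 with Torin1 against 13.18, 13.13 and 12.96 without it. It changed by -0.49 ± 0.10 (adjusted p = 0.0777, and 0.0302 with the block).

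The difference between the lines in their response to hypertonic medium was tested as the change in KO cells minus that in WT cells. Cnn1 was the 1 gene of the 10 with an unadjusted p below 0.05. None of the 10 passed at an adjusted p below 0.05 by limma, while 9.5% of all genes passed, 6.15% with a lower and 3.35% with a higher change in KO. The difference was below 0 for 3 of the 10 and for 51% of all genes. With centred arrays the higher ones made up 70% of those past the threshold, against 35.3%. Cnn1 came nearest, with a difference of 0.95 ± 0.34 log2 (95% interval 0.23 to 1.67, adjusted p = 0.0953). It passed with the array number as a block (adjusted p = 0.0165, with 5.54% of all genes higher in that fit), with centred arrays (0.0427), without the arrays of number 4 (0.0158) and without hypertonic KO array 4, where it was 1.22 (adjusted p = 0.0167). In the lists Klf4 (1.29 ± 0.20, adjusted p = 0.00162), Rock1 (0.84 ± 0.16, adjusted p = 0.00496), Diaph1 (0.52 ± 0.11, adjusted p = 0.00754) and Skil (0.91 ± 0.17, adjusted p = 0.00495) had a higher change in KO, and Elk3, a ternary complex factor, a lower one (-0.67 ± 0.14, adjusted p = 0.00823). Tagln3 had a higher change too (0.87 ± 0.25, adjusted p = 0.0429), a call that was lost on leaving out any 1 of 13 arrays and when only these groups were fitted (adjusted p = 0.0734). The Diaph1 call was lost without the arrays of number 4 (adjusted p = 0.0542).

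The hypertonic change with Torin1 minus that without it passed for none of the 10 genes and for no gene on the array (0% by limma, 0% with the block). At an unadjusted p below 0.05 by limma there were 317 genes, 2.02% of all genes, and 1 of the 10. That 1 was Acta2, with a difference of -0.38 ± 0.10 log2 (95% interval -0.60 to -0.16). Its hypertonic change was -0.41, -0.46 and -0.40 within array numbers with Torin1, against 0.06, -0.13 and -0.06 without it. The difference was below 0 for 9 of the 10 and for 49.1% of all genes. The isotonic WT arrays serve in several of these comparisons, so their results are not independent of each other.

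Over the 18 arrays the levels of a few other genes ran most like those of Acta2 and Srf, given here as Pearson's r among 14904 genes, for description only, since arrays of a group share their treatment. For Acta2 they were Myl6 (r = 0.897), Srsf5 (0.893), Ppic (0.870), Cnot6 (0.867) and S100a1 (0.859), against a median r of -0.03 over all genes compared. For Srf they were the tropomyosin gene Tpm4 (r = 0.903), Ldb3 (0.871), Erp44 (0.864), Ccnd3 (0.862) and Hspb6 (0.855), against a median of -0.07. Tpm4 was at 12.96 to 13.22 in KO arrays and at 12.85 to 13.53 in WT arrays.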

How the data were processed

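Gene expression was measured on 18 arrays, 3 in each of 6 groups. The deposited log2 values were made by the authors with RMA in R 2.11.1, per the submitters' processing notes, and were used as they are. The genome build behind them: not given in the sources used here. Of 34760 probe sets 21640 name 1 gene, 1321 name several and 11799 none. Where a gene had several probe sets (954 of 19937 genes, none of the 10), the one of highest mean over the arrays stood for it. A gene was tested if at least 1 group mean exceeded 5.86 log2, which is the 30th percentile of the values, and 15711 genes were.

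limma 3.58.1 in R 4.3.3 fitted the 6 group means over all 18 arrays together (with 12 residual and 3.29 prior degrees of freedom). The 9 contrasts were tested with moderated statistics and adjusted by Benjamini-Hochberg over all genes tested in each contrast. A gene passed, and is said to have risen or fallen, at an adjusted p below 0.05. All adjusted p-values in the text are limma's, and the scripts were tested on simulated data. The 10 genes and the gene lists were chosen with earlier results of these data known, and the lists are described by counts and medians without a test of their own. From each list at most 4 genes past the threshold were named per comparison, in order of size, and the paralogues in full for isotonic KO over WT cells only. Levels are compared within a gene only, since array signals of different probes have no common scale.

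The array numbers 1, 2 and 4 of the titles were checked for pairing: over the 21 pairs of same-numbered arrays in groups that are compared, deviations from the group means correlated at r of 0.156 to 0.847. The numbers therefore pair the arrays by this check, while the labels do not say what they stand for. The fit has no block, and the fit with the number as a replicate block is given where it changes a call of the 10 genes. Calls of list genes changed with the block too and are not all given. Of the 28 cytoskeletal targets 15 then fell and 3 rose in isotonic KO over WT cells, instead of 10 and 2. Over all genes 10.2% were lower and 10.7% higher in that fit, instead of 6.84% and 7.78%. In hypertonic WT cells 6 of the 28 fell instead of 1, with 7.63% of all genes lower instead of 4.3%. With Torin1 3 fell instead of 0, with 3.78% of all genes lower instead of 1.72%. Other settings tried were quantile normalization, no filter, a filter at the 50th percentile, averaged probe sets for a gene, arrays centred on their medians, only the arrays of a contrast, each array left out in turn and all arrays of number 4 left out. The counts of list genes under these settings were added after seeing the data.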

Additional observations from a re-analysis of the deposited data

Results flagged for a closer look

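Cnn1 was singled out because its response to hypertonic medium ran in opposite directions in the 2 lines at every array number. In KO cells the hypertonic minus isotonic change was 0.45, 0.56 and 0.34 for numbers 1, 2 and 4, against -0.14, -0.79 and -0.57 in WT cells. Neither change passed on its own in the limma fit (adjusted p = 0.177 in KO and 0.23 in WT cells), and the KO arrays of the 2 media overlapped. The difference, tested in the limma fit on the same arrays that singled it out, was 0.95 ± 0.34 log2 (SE). Its adjusted p was 0.0953, and 0.0165 with the replicate number as a block. The KO signals behind the difference, 7.40 to 8.78, were far below the WT signals of 11.78 to 12.57. Its cause was not tested.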

How the results depend on the processing

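Of the single-gene results 465 values under other settings and 1068 with an array left out kept their direction and their side of the threshold. Calls were gained in 11 and 4 values, lost in 12 and 34, and the direction turned in 8 and 10, none of the turned ones a result that had passed. With arrays centred on their medians the hypertonic KO changes turned to 0.088 for Acta2, 0.042 for Tpm1, 0.0063 for Vcl and 0.14 for Cald1, and the KO over WT change of Acta2 in hypertonic medium to 0.031. The Torin1 change in hypertonic medium turned to 0.048 for Cald1 under quantile normalization. Without arrays of number 4 it turned to 0.037 for Cald1 and -0.072 for Tagln. With single arrays left out the hypertonic KO change ran from -0.26 to 0.043 for Tpm1, -0.27 to 0.064 for Vcl and -0.079 to 0.056 for Cald1. The hypertonic Torin1 change ran from -0.19 to 0.15 for Tagln and -0.073 to 0.081 for Cald1. The causes were not tested.

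Counts of the 10 genes past the threshold moved as follows. With only the arrays of the contrast, which leaves fewer degrees of freedom, 0 passed in hypertonic medium with Torin1 (3 otherwise), 1 in KO cells (2), 0 for Torin1 in hypertonic medium (1), and for KO over WT 6 in isotonic (7) and 4 in hypertonic medium (6). With centred arrays 0 passed in hypertonic KO cells, 5 for KO over WT in hypertonic medium and 1 for the KO minus WT difference (0 otherwise). The replicate block also gave 1 for that difference, and beyond the calls named in the report it changed no other call of the 10 genes. Without the arrays of number 4, 1 passed for that difference and 2 for Torin1 in hypertonic medium. With single arrays left out the counts ran from 1 to 2 for hypertonic WT cells, 0 to 2 for hypertonic KO cells, 0 to 1 for Torin1 in hypertonic medium, 4 to 7 for KO over WT in isotonic medium and 0 to 1 for the KO minus WT difference. Over all genes 1295 passed in hypertonic WT cells, but 266 with only those arrays, 2360 with the block, 3335 without number 4 and 534 to 1836 with single arrays left out. In hypertonic WT cells with Torin1 530 passed, against 23, 1235, 1555 and 161 to 675 in the same order, and for Torin1 in hypertonic medium 18 against 0, 220, 748 and 0 to 148. For KO over WT in isotonic medium 2298 passed, and 3810 without number 4. For the KO minus WT difference 1492 passed, 2280 with the block, 2804 without number 4 and 832 to 1745 with single arrays left out. For Torin1 in isotonic medium 0 passed, and up to 25 with an array left out. Centring moved the median change of all genes to 0.19 in hypertonic KO over WT cells, where 70.2% of the genes past the threshold were then higher, against 43.4%. With 3 arrays a group, differences of the size seen for Srf and Vcl between the lines were within the error of the fit.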

Other observations

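The arrays of number 4 stood apart in several of the 10 genes. Srf was highest on array 4 in 5 of the 6 groups, among them isotonic WT cells (10.85, against 10.07 and 10.38). Actg2 was lowest on array 4 in 5 of the 6 groups, and Vcl was lowest on array 4 in both KO groups and in hypertonic WT cells with and without Torin1. These arrays enter the group means in the comparisons above, and the labels do not say what the array numbers stand for.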
